A study of Mus musculus with 6 samples.

Results

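The genes described here encode the proteins of the cytosolic ribosome in mouse bone marrow-derived macrophages. They were taken by gene symbol, as every row of the deposited table whose symbol is Rpl or Rps followed by a number with or without a final a, l or x, the acidic stalk forms Rplp0 to Rplp2, and Rpsa. The pattern leaves out rows marked as pseudogenes and the Rps6k kinases. It found 81 of the 38087 rows, 49 for the large (60S) and 32 for the small (40S) subunit. Of these, 79 were above 0 in all 6 libraries and were tested. Rpl3l, a paralog known from striated muscle, and Rpl10l, one known from testis, were listed at 0 in all 6.

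Both groups were macrophages from marrow of C57BL/6J mice, all male, with an age of 8 to 10 weeks in the protocol and of 2 to 4 months in the sample labels. Marrow cells were cultured for 7 days in medium with M-CSF (macrophage colony-stimulating factor) at 10 ng/ml, then scraped off and plated for 24 h without it. One group was then given 10 nM resolvin D1 (RvD1), a lipid mediator made from docosahexaenoic acid, for 6 h, and the other was left untreated, with 3 libraries in each group. The labels describe no vehicle for the untreated cells. Nor do they tell whether libraries of the same group are from different animals or dishes, and p-values therefore measure only how far these samples spread, which may be technical.

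A ribosome holds a single copy of nearly every one of these proteins, so cells make them in balanced amounts. In mammals most of their mRNAs begin with a run of pyrimidines at the 5′ end, the TOP motif, through which the kinase mTORC1 sets how much of each mRNA is translated. Ribosome production is tied to growth and to growth factor supply, and ribosomal proteins that are made in excess can bind Mdm2 and raise p53.

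Poly-A selected RNA was sequenced, and the deposited values are log2 normalized read numbers. The estimated depth was 11.2 to 16.3 M reads in RvD1 and 9.05 to 14.3 M in untreated libraries. All 10 macrophage markers in the table were detected, and their summed level overlapped between the groups (107220 to 137290 normalized reads in RvD1 and 103050 to 133360 in untreated libraries). That of 4 stromal markers also overlapped (32054 to 46260 in RvD1 and 35576 to 41364 in untreated libraries). So did that of 8 neutrophil markers (4234 to 11103 in RvD1 and 3337 to 11786 in untreated). In RvD1 libraries the stromal marker Col1a1 was at 13.8 to 14.4 (log2) and the macrophage marker Csf1r at 14.1 to 14.4. The 3 endothelial markers summed to 412 to 1162 in RvD1 and 320 to 528 in untreated libraries, with log2 fold changes of 0.65 for Cdh5, 0.75 for Kdr and 0.67 for Pecam1. The stromal marker Lepr had 0.86, and none of these 4 genes passed (limma adjusted p between 0.141 and 0.356). Their part in the results below was not tested. The B cell markers Ms4a1 and Pax5 and the T cell marker Cd3e were listed at 0 in every library. Others were above 0 in some, with summed levels of at most 1.53 normalized reads in RvD1 and 3.05 in untreated libraries for 4 B cell markers, and 6.11 and 1.41 for 4 T and NK cell markers. In bulk RNA, fewer cells of a type and less RNA per cell cannot be told apart.

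The start sites of ribosomal protein genes are shown first, because the pyrimidine run there is the feature the family is known for. RefSeq (GRCm38.p6) gave a promoter for 59 of the 79 tested genes. The windows below run from 40 bases before the annotated start to 20 bases after it, on the coding strand. Capitals mark the longest run of at least 5 C or T letters between 20 bases before and 20 bases after the start. The first 6 belong to genes that fell with RvD1 in the test below, and the last 4 to genes at the top of the family by fold change, Rpl24 by its label only.
Rps21: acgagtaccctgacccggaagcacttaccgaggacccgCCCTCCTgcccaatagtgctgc
Rpl38: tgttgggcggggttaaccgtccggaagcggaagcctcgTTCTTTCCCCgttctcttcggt
Rpl37a: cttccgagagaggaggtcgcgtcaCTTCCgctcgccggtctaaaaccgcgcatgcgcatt
Rpl28: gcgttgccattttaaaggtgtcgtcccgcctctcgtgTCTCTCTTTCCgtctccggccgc
Rps15: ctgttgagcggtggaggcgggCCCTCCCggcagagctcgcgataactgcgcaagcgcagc
Rpl37: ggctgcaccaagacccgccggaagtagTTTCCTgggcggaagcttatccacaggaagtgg
Rps24: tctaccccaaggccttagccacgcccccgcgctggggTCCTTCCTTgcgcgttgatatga
Rpl24: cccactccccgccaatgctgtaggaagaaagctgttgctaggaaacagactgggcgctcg
Rps25: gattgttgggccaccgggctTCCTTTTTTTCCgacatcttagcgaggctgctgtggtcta
Rps27l: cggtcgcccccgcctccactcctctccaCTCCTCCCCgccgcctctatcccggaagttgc

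These windows lie at chr2:180257339-180257398 for Rps21, chr11:114668540-114668599 for Rpl38, chr1:72711220-72711279 for Rpl37a, chr7:4792925-4792984 for Rpl28, chr10:80292391-80292450 for Rps15 and chr15:5116573-5116632 for Rpl37. Those of the other four are chr14:24490638-24490697 for Rps24, chr16:55966235-55966294 for Rpl24, chr9:44407674-44407733 for Rps25 and chr9:66946046-66946105 for Rps27l, all on the plus strand. The run is 10 bases long and begins 2 bases before the start in Rpl38, and it is 11 bases long and begins 3 bases before it in Rpl28, both genes that fell. Rps24, which did not, has a run of 9 bases that also begins 3 bases before the start. In Rpl24 no run of 5 was found between 20 bases before and 20 bases after the start. The Rpl24 window lies outside chr16:55973883-56008913, where the identifier of the row labelled Rpl24 is annotated. It may therefore not belong to the gene whose fold change is given.

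Over all 59 promoters, 30 (50.8%) held at least 8 C or T letters in a row on the sense strand between 20 bases before and 30 after the start, against 5093 of all 27025 RefSeq promoters (18.8%). The letters CCGGAAG, the core that ETS factors bind, were found on either strand of the whole 300-base promoter in 25 of 59 (42.4%) and in 9.12% of all promoters. They stand in the printed windows of Rps21, Rpl38 and Rpl37 among the genes that fell, and of Rps27l, which did not. The Sp1-type letters GGGCGG were in 35 of 59 (59.3%) and 35.9% of all, the YY1-type letters AAGATGG in 8 (13.6%) and 6.48%, and the TATA box letters TATAAA in 5 (8.47%) and 14.2%, again on both strands. Genes with the pyrimidine run had a median log2 fold change of -0.11 with RvD1, and those without it one of -0.15. The corresponding medians were -0.12 and -0.15 for CCGGAAG, -0.16 and -0.10 for GGGCGG, -0.22 and -0.13 for AAGATGG (8 genes with it), and -0.21 and -0.13 for TATAAA (5 genes with it). A match to these letters describes the window and is not a mapped binding site.

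The comparison asked which transcripts differed in these macrophage cultures 6 h after RvD1. Of the 79 ribosomal protein genes tested, 9 fell, 0 rose and 70 did not pass the test (limma over all 18899 tested genes, Benjamini-Hochberg adjusted p under 0.05). Over all tested genes 0.556% fell and 0.561% rose. This fit did not pair libraries by replicate number, and the count with a replicate block is given at the end. At an unadjusted p under 0.05 in limma, 40 ribosomal protein genes were lower and 1 was higher, where 9.65% of all genes were lower and 10.3% higher. The fold change was negative in 71 of the 79 (49.2% of all genes), with a median of -0.16 on the log2 scale, while the median of all tested genes was 0.00. All 3 RvD1 libraries lay below all 3 untreated libraries in 46 of the 79 genes, above them in 1, and the groups overlapped in 32. Over all genes these shares were 12.8% below and 12.6% above.

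**Figure D1:**
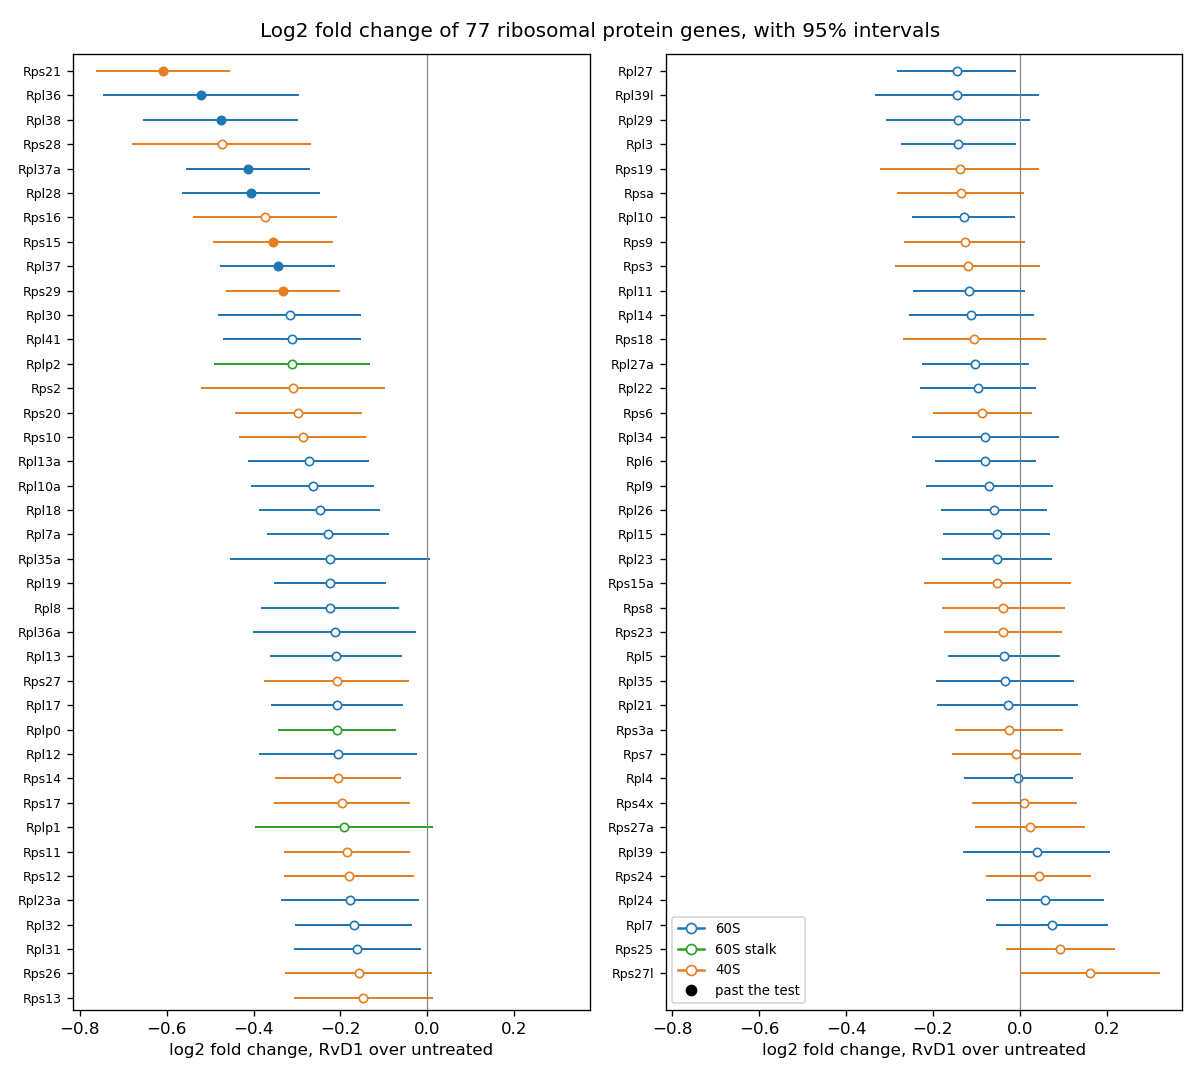
Log2 fold change (RvD1 over untreated, x axis) of 77 of the 79 tested ribosomal protein genes, each with its 95% limma interval, ordered from lowest at the upper left to highest at the lower right and coloured by subunit, with filled points for 8 of the 9 genes past the test. The points run from -0.61 for Rps21 to 0.16 for Rps27l, and 69 of 77 lie left of 0.

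Among proteins of the small subunit, 3 of 32 genes fell. Rps21, a small protein of the 40S subunit, was at 9.40, 9.26 and 9.46 in RvD1 libraries and at 10.04, 9.95 and 9.96 in untreated libraries (log2 normalized reads). The groups were far apart, and Rps21 reached 0.655 of its untreated level (95% interval 0.590 to 0.728; limma adjusted p = 0.0217), the lowest fold in the family. Rps15 sits in the head of the 40S subunit near the decoding site and is needed to export the young subunit from the nucleus. Its values were 11.49, 11.32 and 11.35 in RvD1 and 11.76, 11.75 and 11.72 in untreated libraries, with no overlap. The log2 fold change was -0.35 with an SE of 0.06 (limma adjusted p = 0.0387). Rps29, a zinc-binding protein of the 40S head that is mutated in some families with the human anemia Diamond-Blackfan, was at 9.81, 9.75 and 9.68 in RvD1 and 10.06, 10.10 and 10.07 in untreated libraries. The untreated values were close together here, with an SD of 0.02 (n = 3), and the fold change was -0.33 (SE 0.06; limma adjusted p = 0.0409).

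Of the 47 tested genes for the large subunit, 6 fell. Rpl36, a protein of the 60S subunit, was at 8.34, 7.97 and 8.15 with RvD1 and at 8.68, 8.70 and 8.64 without it. Its RvD1 libraries had an SD of 0.19 (n = 3), and its fold change of -0.52 (SE 0.10) stood at the threshold (limma adjusted p = 0.0499). Rpl38 is the gene mutated in the Tail-short mouse, where patterning of the skeleton and translation of Hox mRNAs are disturbed. It was at 8.20, 8.23 and 8.13 in RvD1 and 8.77, 8.64 and 8.57 in untreated libraries, without overlap (log2 fold change -0.48, SE 0.08; limma adjusted p = 0.0386). Rpl28, which has no counterpart in budding yeast, was at 9.49, 9.32 and 9.35 with RvD1 and 9.84, 9.83 and 9.71 without (-0.41, SE 0.07; limma adjusted p = 0.0397).

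Rpl37 and Rpl37a are a pair of zinc-binding 60S proteins that share only a number in their names, and both fell. Rpl37a was at 9.36, 9.26 and 9.20 in RvD1 libraries and at 9.66, 9.68 and 9.72 in untreated ones (-0.41, SE 0.06; limma adjusted p = 0.0337). Rpl37 was at 9.60, 9.58 and 9.59 in RvD1 and 10.01, 9.89 and 9.90 in untreated libraries (-0.34, SE 0.06; limma adjusted p = 0.0386). The RvD1 libraries of Rpl37 lay close together, with an SD of 0.01 (n = 3), and for both genes the groups were apart.

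**Figure D2:**
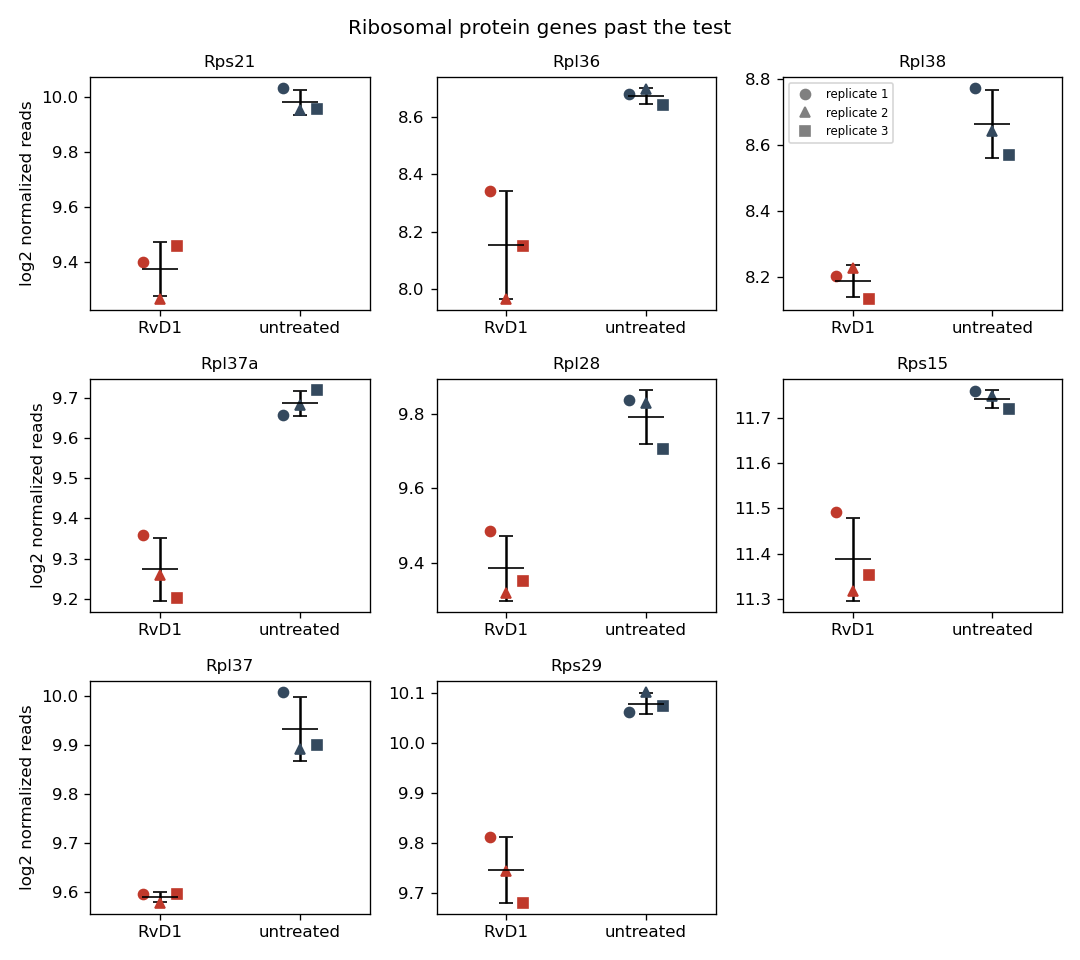
Log2 normalized reads (y axis, own scale in each panel) of 8 of the 9 ribosomal protein genes past the test in the 3 RvD1 and 3 untreated libraries, with the mean and SD of each group (n = 3) and a marker shape for each replicate number. In every panel the RvD1 points lie below all untreated points.

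The 8 genes described above are protein-coding and lie on different chromosomes. In mm10 their positions are Rpl37a on chromosome 1 (72711290 to 72713813), Rps21 on 2 (180257377 to 180258445), Rpl28 on 7 (4792874 to 4795066) and Rps15 on 10 (80292453 to 80294114). Rpl38 is on 11 (114668524 to 114672331), Rps29 on 12 (69157722 to 69159186), Rpl37 on 15 (5116645 to 5119140) and Rpl36 on 17 (56613416 to 56614243). The whole family is spread over 19 chromosomes.

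Some genes lay close to the threshold on the other side. Rps28, whose human counterpart is also a Diamond-Blackfan gene, was at 8.84, 8.64 and 8.62 in RvD1 and 9.31, 9.16 and 9.06 in untreated libraries (-0.47; limma adjusted p = 0.0512). Rps16, which reaches the tRNA in the ribosome's P site, had -0.37 (limma adjusted p = 0.0533). For both the groups did not overlap.

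The acidic stalk recruits the elongation factors, with Rplp0 as the anchor for Rplp1 and Rplp2. Rplp0 was at 13.13, 13.00 and 13.01 in RvD1 and at 13.27, 13.25 and 13.24 in untreated libraries, and Rplp2 at 10.36, 10.09 and 10.15 against 10.58, 10.45 and 10.50 in untreated. Their groups were apart, but neither passed (-0.21 and -0.31; limma adjusted p = 0.109 and 0.0841). Rplp1 overlapped, since RvD1 replicate 1 at 12.55 was above 2 of the untreated libraries, and its fold change was -0.19 (limma adjusted p = 0.275). Rpsa, also known as the laminin receptor, had -0.14 (limma adjusted p = 0.272). Rps6, the substrate of the S6 kinases, was at 10.75, 10.76 and 10.73 in RvD1 and 10.87, 10.81 and 10.82 in untreated libraries (-0.09; limma adjusted p = 0.368).

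At the upper end, 8 genes had positive values and 0 passed in limma. Rps27l, a paralog of Rps27 that p53 can induce, was at 9.80, 9.83 and 9.63 in RvD1 and 9.66, 9.55 and 9.56 in untreated libraries. The groups overlapped, and the fold change of 0.16 (95% interval 0.00 to 0.32; limma adjusted p = 0.244) was the highest of the family. Rps25, which some viral RNAs need to recruit the ribosome, was the 1 gene with all RvD1 libraries above all untreated ones, at 9.83, 9.80 and 9.75 against 9.73, 9.67 and 9.70 in untreated (0.09; limma adjusted p = 0.384). Rpl7 had 0.07, the row labelled Rpl24 0.06, and Rps24 0.04. Their intervals of -0.05 to 0.20, -0.08 to 0.19 and -0.08 to 0.16 all included 0. Rpl24 forms a bridge to the small subunit and is mutated in the Belly spot and tail mouse. The identifier of its row is annotated at chr16:55973883-56008913 with a coding transcript of 4920 bases, away from the promoter printed above. Values given for Rpl24 are therefore those of that locus, which may be another gene. The row stays in the counts over the 79 genes.

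A final a in these names marks no paralog: Rpl37 and Rpl37a, for example, are different proteins, and so are the other pairs of that kind. The remaining genes of this naming ranged from -0.27 for Rpl13a, a 60S protein that is released from the ribosome in interferon-treated human monocytes, and -0.26 for Rpl10a to 0.02 for Rps27a, which is made as a fusion with ubiquitin. Between them lay Rpl7a (-0.23), Rpl35a (-0.22), Rpl36a (-0.21), Rpl23a (-0.18), Rpl27a (-0.10), Rps15a (-0.05) and Rps3a (-0.02). None of these 10 passed the limma test. Rpl39l, a true paralog of Rpl39, had -0.14 (limma adjusted p = 0.368).

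By subunit, the median log2 fold change was -0.17 over the 47 genes of the 60S subunit, 44 of them negative, and -0.14 over the 32 of the 40S subunit, 27 of them negative. The reads of all 60S genes divided by those of all 40S genes came to 1.35 ± 0.02 in RvD1 and 1.34 ± 0.01 in untreated libraries (SD, n = 3). The difference was smaller than the spread between libraries.

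Per kilobase of coding transcript, high levels within the family belonged to the stalk gene Rplp1 (10457 normalized reads per kb in RvD1 and 11874 in untreated libraries), to Rpl8 at 8843 and 10306, Rplp0 at 6236.5 and 7196, and Rps9 at 6352 and 6929. Rpl8 had a log2 fold change of -0.22 and Rps9 one of -0.13 (limma adjusted p = 0.128 and 0.281). Across the 79 genes, Spearman's rho between the fold change and the mean log2 level was 0.0710 (genes that share the same libraries and are not independent replicates). The median SD within a group was 0.08 for RvD1 and 0.04 for untreated libraries on the log2 scale.

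The RvD1 libraries differed among themselves. Set against the untreated mean of each gene, the median ribosomal protein gene stood at -0.09, -0.17 and -0.22 in RvD1 replicates 1, 2 and 3, and at 0.03, -0.02 and -0.02 in untreated replicates 1, 2 and 3 (log2 differences). The median of the other genes was at most 0.01 from 0 in each library. RvD1 replicate 1 was the nearest to the untreated libraries, and replicate 3 was the lowest of the 3 for 52 of the 79 genes. The share of all reads that fell on these genes was 1.19%, 1.09% and 1.06% in the RvD1 libraries and 1.30%, 1.23% and 1.21% in the untreated ones (1.12 ± 0.07 and 1.25 ± 0.04, SD, n = 3), and the groups were apart. Without RvD1 replicate 1 the number of genes that fell was 20, where 1.12% of all genes did. Without any 1 of the other five libraries (RvD1 replicate 2 or 3, untreated replicate 1, 2 or 3) it was 0 in limma, with 35, 28, 31, 31 and 33 lower at an unadjusted p under 0.05. Over all genes these 5 fits called 0.0%, 0.0%, 0.0212%, 0.0159% and 0.0% lower at an adjusted p under 0.05. Shares of all genes at an unadjusted p under 0.05 are not given for these fits. In the limma fit of all 6 libraries 9.65% of all genes were lower at that threshold.

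**Figure D3:**
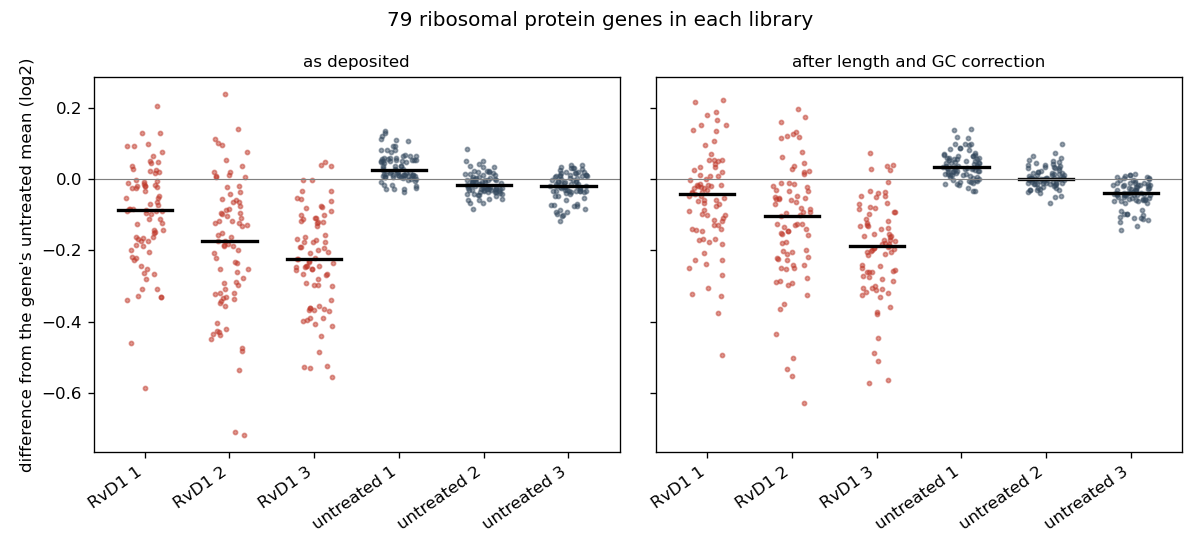
Difference of each of the 79 ribosomal protein genes from its untreated mean (y axis, log2) in the 3 RvD1 and 3 untreated libraries, with the values as deposited on the left and after correction for transcript length and GC content on the right; bars are medians. The medians of the RvD1 libraries are -0.09, -0.17 and -0.22 as deposited and -0.04, -0.10 and -0.19 after the correction, and those of the untreated libraries lie within 0.04 of 0.

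Fold changes in these libraries followed the length and GC content of transcripts across all genes, and ribosomal protein transcripts are short. Their median coding transcript had 729 bases and a GC content of 51.8%, against 2566 bases and 50.3% for other tested genes (those whose log2 values averaged at least 5). Within the family the 26 genes of lowest GC content (41.3% to 48.7%) had a median log2 fold change of -0.05, the 27 in the middle one of -0.17 and the 26 of highest GC content (53.8% to 60.8%) one of -0.22. By length, the 26 shortest (271 to 570 bases) had -0.21, the 27 in the middle -0.15 and the 26 longest -0.10. Of the 9 genes that fell, 6 were among the 26 shortest and 5 among the 26 richest in GC. Spearman's rho between fold change and GC content was -0.444 over the 79 genes and -0.572 over 12945 other genes, and with length it was 0.364 and 0.349. These correlations run across genes that share the same 6 libraries, and for the other genes they use the longest transcript in place of the coding one.

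**Figure D4:**
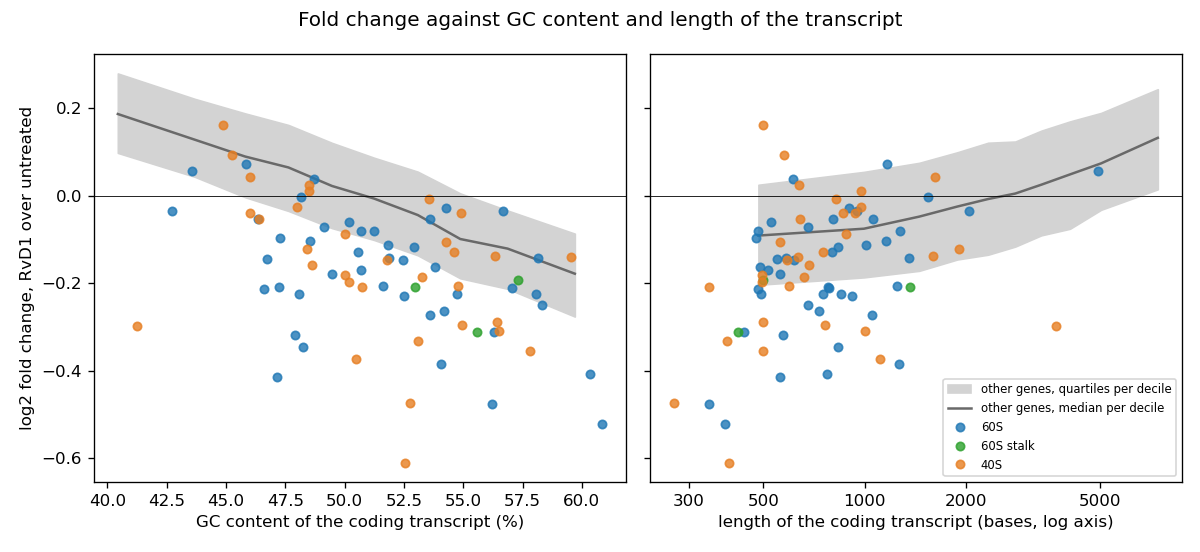
Log2 fold change (RvD1 over untreated, y axis) against GC content (left) and length (right, log axis) of the coding transcript. Points are the 79 ribosomal protein genes by subunit. The line and grey band are the median and quartiles of the other genes, in bands along the x axis that hold about equal numbers of genes. In the ribosomal protein genes, as in the others, fold changes are lower at higher GC content and shorter length, with medians from -0.05 to -0.22 across the bands of GC content in the family.

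A spline in length and GC content was therefore fitted to each library and subtracted from all genes. After this, 1 ribosomal protein gene was past the test and lower, Rps21 with -0.52 (SE 0.06; limma adjusted p = 0.0284), and 0 were higher. Over all genes 0.0863% were then called lower, with 0.0755% higher. Without adjustment limma gave 34 lower and 1 higher at p under 0.05 (7.4% and 4.73% of all genes). The median over the family was -0.11 and 64 of 79 genes were negative, while over all genes the median was -0.01 and 51.4% were negative. Rpl28 stood at -0.33, Rpl36 at -0.26, Rpl38, Rpl37 and Rps29 at -0.24 each, Rpl37a at -0.21 and Rps15 at -0.10, with limma adjusted p between 0.130 and 0.507. Rps6 then stood at 0.10, Rplp1 at 0.01, Rps24 and Rpl24 at -0.09 each and Rps27a at -0.04, all with a changed sign and none past the test. The medians of the 3 bands of GC content were then -0.12, -0.11 and -0.13 from low to high, and rho with GC content was -0.0397. Between RvD1 libraries the order stayed as it was, with medians of -0.04, -0.10 and -0.19 in replicates 1, 2 and 3.

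Ribosomal protein genes have many processed pseudogenes, whose sequence can be too close to the gene's to place a short read. For 74 of the 79 genes the annotation holds a pseudogene with at least 95% identity over at least 100 bases, and for 69 of them such pseudogenes have rows of their own in the table, 412 rows in all. In 55 genes these rows together held more reads than the gene's own row. Rpl38 had 3 rows with 527% of its reads, Rpl36 7 rows with 483% and Rpl21 39 rows with 823%. Rps21, Rps27l and the identifier labelled Rpl24 had no such row. The levels given here for genes with such rows are therefore uncertain, and genes with more pseudogene rows had lower levels per kilobase (rho -0.445, n = 79).

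The pseudogene rows had values near those of their genes for some genes and not for others. Of the 409 tested, 15 fell and 0 rose in limma, where 0.556% of all tested genes fell and 0.561% rose. At an unadjusted p under 0.05, 127 were lower and 2 higher (9.65% and 10.3% of all genes). Negative values were found in 351 (49.2% of all genes), and the median was -0.12. For Rpl28, 3 of its 4 rows fell, with a median log2 fold change of -0.42 beside -0.41 for the gene. The medians were -0.45 for the 7 rows of Rpl36, -0.40 for the 4 of Rpl37a, -0.35 for the 3 of Rpl38 and -0.30 for the 5 of Rps29. The single row of Rpl37 had -0.42 beside -0.34 for the gene, and that of Rps15 had -0.13 beside -0.35. Medians of the rows were also apart from the gene for Rpl30 (-0.02 beside -0.32) and Rpl13a (0.01 beside -0.27). For Rps26 the rows were lower than the gene (-0.35 beside -0.16). These rows are no independent measure, since the same reads may be shared between copies.

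**Figure D5:**
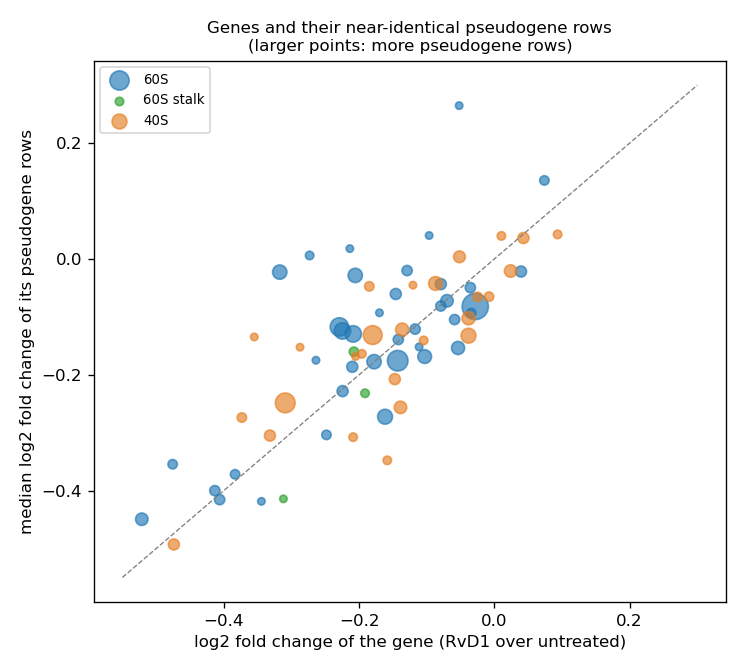
Median log2 fold change of the near-identical pseudogene rows of each gene (y axis) against the log2 fold change of the gene itself (x axis), coloured by subunit, with larger points for genes with more rows and a dashed line where both are equal. Genes such as Rpl36 and Rps28 at the lower left have pseudogene rows at -0.45 and -0.49.

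Each gene was then summed with its pseudogene rows, a step chosen after seeing the data. In limma 8 of the 79 fell and 0 rose, against 0.427% lower over all genes. At an unadjusted p under 0.05, 44 were lower and 1 higher. The shares of all genes at that threshold, 9.65% and 10.3%, are from the fit without summing. Rps28 now passed (-0.49; limma adjusted p = 0.0446). Rps15 (-0.29) and Rps29 (-0.31) did not (limma adjusted p = 0.0699 and 0.0531), and the other seven of the 9 did. The median over the family was -0.15. Genes and pseudogene rows together took 2.66 ± 0.16% of all reads in RvD1 and 2.97 ± 0.11% in untreated libraries (SD, n = 3).

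Introns of some ribosomal protein genes encode small nucleolar RNAs, which guide the modification of ribosomal RNA. Of the 79 genes, 30 hold 58 such genes within their bounds, with 5 in Rpl4, which is more than in any other member. Their median log2 fold change was -0.17 with 2 genes past the test, and that of the 49 without was -0.15 with 7.

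Other genes of the same machinery are given for comparison, from lists of their known roles. Over all tested genes 0.556% fell and 0.561% rose in limma. At an unadjusted p under 0.05, 9.65% of all genes were lower and 10.3% higher. Ribosomal proteins that go by other symbols numbered 6 in the table, of which 1 fell and 0 rose in limma (unadjusted, 2 were lower and 0 higher at p under 0.05). Their median was -0.11. Fau, a ubiquitin-like protein fused to a 40S protein, had -0.31, Gnb2l1, the scaffold RACK1, and Rpl36al -0.11 each, Rpl7l1 0.05 and Rpl22l1 0.07. The 17 translation factors and related genes whose mRNAs also carry a TOP motif had a median of -0.04, and 0 passed in either direction in limma (unadjusted, 4 were lower and 1 higher at p under 0.05). Their smallest p belonged to Eif3e, a subunit of initiation factor 3, with a log2 fold change of 0.26 (limma adjusted p = 0.0702). It stood at 0.01 after the length and GC correction.

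Genes that make ribosomes or control their use formed further lists. The shares of all tested genes to set beside their counts were again 0.556% lower and 0.561% higher in limma. At an unadjusted p under 0.05 they were 9.65% and 10.3%. Of 40 ribosome assembly factors, 21 initiation factors, 13 RNA polymerase I genes, 19 genes of mTORC1 and TOP control and 3 noncoding hosts of small nucleolar RNAs, 0 passed in limma. At an unadjusted p under 0.05, 11, 3, 3, 2 and 1 of them were lower and 5, 5, 1, 3 and 0 higher, with medians of -0.01, 0.04, 0.02, -0.03 and -0.27. The smallest p in each list belonged to the following genes, with log2 fold changes in brackets. They were Bop1 (-0.29), Eif3b (-0.17), Taf1c (-0.39), the mTORC1 inhibitor Akt1s1 (-0.41, limma adjusted p = 0.0527) and Snhg3 (-0.55). These genes stood at -0.14, -0.06, -0.22, -0.22 and -0.60 after the length and GC correction, and none passed. Of 11 genes of the p53 response to ribosomal stress, Bax, which opens the outer mitochondrial membrane in apoptosis, fell (-0.31; limma adjusted p = 0.0372) and 0 rose (unadjusted, 4 were lower and 2 higher at p under 0.05). After the length and GC correction Bax was at -0.08 and did not pass, and Sesn2, an inhibitor of mTORC1, passed with 0.47 (limma adjusted p = 0.0327), against 0.33 as deposited. Whether the ribosomal protein genes differed from these lists was not tested.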

How the data were processed

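The deposited table gives 38087 Ensembl identifiers and, for each library, a column that the file headers call normalized. The authors' values were taken to be log2 normalized reads, since none lay below 0 and the highest was 17.4. Libraries were made with a TruSeq kit from poly-A RNA, per the labels' protocols. TopHat2 2.0.7 and mm10 come from the submitters' processing notes. Not given in the sources used here are the read counter, its treatment of reads that match several places, and the normalization method. Depth was estimated from the step between low values. Within 0.02 reads, 40.0% to 46.7% of low values were whole and 7.76% to 9.87% lay at a half-read, so no count test was run.

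Samples were grouped by their titles. Genes above 0 in at least 3 libraries (18899) were tested with limma 3.58.1 in R 4.3.3 with a variance trend and treatment as the only term, two-sided, with Benjamini-Hochberg adjustment over all of them. Standard errors and 95% intervals came from that fit. The fits were tested on simulated data. For the correction, splines with 4 degrees of freedom in log2 length and GC content of the longest transcript (GENCODE M21, 36308 genes) were fitted to each library. Bands of length and GC content used the coding transcript. Pseudogenes were matched with blastn 2.17.0. The family and the lists were chosen with earlier results of these data known, so their counts are a description. Genes named were those past the test, the 5 lowest and 5 highest, the stalk, Rpsa, Rps6, genes named with a final a or l beside another member, the 5 highest per kilobase, those listed at 0, and in each other list the genes past the test or the smallest p; a few others were named after their values were seen (Rps16, Rpl21, Rpl4, Fau, Gnb2l1, Rpl36al, Rpl7l1 and Rpl22l1). Some genes that this rule takes are not reported here, while counts and medians over the family and the lists include them. Alternatives tried were other filters, a pseudocount of 1, no variance trend, quantile normalization, median centring, length and GC corrections, a replicate block, summing with pseudogenes, and leaving out each library. Figures were drawn with matplotlib 3.10.9.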

Additional observations from a re-analysis of the deposited data

How the results depend on the processing

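The number of ribosomal protein genes lower with RvD1 was 9 as reported, and 8 to 11 when genes had to be above 0 in all 6 libraries, with a pseudocount of 1, under quantile normalization, under median centring and when summed with pseudogenes. It was 1 with no filter on low values, 1 under each of 3 length and GC corrections, and 0 without the variance trend (31 lower at an unadjusted p under 0.05 in limma). Leaving out 1 library gave 0 to 20. No gene of the family was higher in the adjusted limma test under any of the 18 alternatives (0 to 4 at an unadjusted p under 0.05). Over all genes, lower and higher calls were 105 and 106 as reported, 7 and 5 with no filter, 0 and 1 without the trend, 16 and 14 with the correction fitted with or without the family, 10 and 12 with the correction on the principal coding transcript, and 0 to 212 and 0 to 239 without 1 library. Calls over all genes are not given for the filter at above 0 in all 6 libraries, the pseudocount, quantile normalization and median centring. Shares of all genes at an unadjusted p under 0.05 are not given for the fit without the trend or for the counts of higher genes. The family's counts in those fits therefore cannot be set against all genes. The cause was not tested. The family's median log2 fold change of -0.16 moved to -0.094 under the principal-transcript correction (chosen after seeing the data) and lay between -0.20 and -0.11 under the others.

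Of 612 pairs of a named gene and an alternative, 473 kept direction and side of the threshold, 93 lost a call, 23 gained one and 23 changed sign. With the correction, also without the family and with a block, Rplp1 was at 0.013 (0.012 without the family), Rps6 at 0.097 (0.096), Rps27a at -0.038 (-0.039), Rps24 at -0.094 (-0.094) and Rpl24 at -0.091 (-0.091). On the principal transcript Rplp1 was at 0.013, Rps9 at 0.00061, Rps24 at -0.023 and Rpl24 at -0.11. Rps27a was at -0.019 when summed with pseudogenes. With 1 library left out, Rps15a ranged from -0.089 to 0.018 (positive without RvD1 replicate 3) and Rps3a from -0.050 to 0.0031 (positive without RvD1 replicate 3 and, at 9.78e-05, without untreated replicate 1). None of these passed.

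Whether the replicate numbers pair the libraries is not given by the labels and was not settled by the data: over 13176 genes, deviations from the group means correlated at 0.301, -0.0801 and 0.417 for numbers 1, 2 and 3, and at -0.393 to 0.0879 between libraries of different number. Numbers 1 and 3 thus stood above every unmatched pair and number 2 did not. Some marker genes rose from number 1 to 3 in both groups. S100a8 was at 9.86, 10.39 and 11.14 in RvD1 and 9.35, 9.99 and 11.02 in untreated libraries. Lyz2 was at 15.85, 15.98 and 16.23 in RvD1 and 15.77, 15.85 and 16.18 in untreated libraries. Mertk differed in order (9.97, 10.37 and 10.29 in RvD1, 9.91, 10.15 and 10.16 in untreated). The fit without the block was kept, and its counts ignore any pairing. With a replicate block 30 ribosomal protein genes were lower, and 847 genes lower and 1049 higher in all; with block and correction together these were 18, 456 and 306. At 3 libraries per group, the standard errors of the single-gene tests were 0.05 to 0.10. The smallest change past the test in the fit as reported was -0.33 (Rps29). Changes the size of the family's median of -0.16 were smaller than any that passed there.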
